A study of Mus musculus with 2 samples.

Results

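The genes of cholesterol synthesis, sterol sensing, efflux and intracellular sterol transport were followed through the nonparenchymal cell classes of the mouse liver. The set was given as 28 symbols grouped by function, and all 28 were found among the 34244 genes counted. Earlier results of these data were known when the set was chosen. They comprised 18 synthesis enzymes, 4 sterol-sensing genes, 3 genes of efflux and lipoprotein receptor removal, and 3 genes of sterol transport and storage. The data were single-cell libraries from the livers of 2 mice of the C57/BL6 strain, 1 mouse per group. The Control mouse received peanut oil by gavage, and its treatment label reads untreated. The PCB126 mouse received PCB126, a dioxin-like biphenyl and a ligand of the aryl hydrocarbon receptor, at a dose labelled 20 µg/kg/day, although the protocol describes a single gavage. Both mice carry an age label of postnatal day 21, were kept for 5 weeks of exposure, fasted overnight for 12 h and anesthetized with tribromoethanol. Both suspensions were depleted of hepatocytes by centrifugation and passage through 30 µm nylon, and of red cells by lysis, so hepatocyte cholesterol metabolism was not measured here.

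Cells make cholesterol from acetyl-CoA through the mevalonate pathway, and its enzyme genes are driven together by the transcription factor SREBP2. When sterol is scarce, SCAP escorts SREBP2 out of the endoplasmic reticulum, and when sterol is plentiful, INSIG proteins hold the complex back. Excess sterol is turned into oxysterols that activate the liver X receptors (LXR), which switch on the efflux pumps ABCA1 and ABCG1 and the ubiquitin ligase MYLIP (also called IDOL), which marks lipoprotein receptors for degradation.

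The promoter stretches that carry the textbook binding letters of both regulators are shown because the results set SREBP2 targets beside LXR targets. Of the 28 genes, 22 had a RefSeq promoter (build GRCm38.p6), in 26 windows, of which the 250 bases before the start were searched on both strands. The LXR-type repeat, GGTNA followed after 5 bases of any kind by GGTNA, occurred in 1 of the 26 windows, that of Abca1, and in 0.621% of all 32851 windows. The sterol regulatory element was searched as TCACNNCA, which occurred in 9 of the 26 windows and in 11.4% of all. Its strict form TCACCCCA, a subset of those matches, occurred in those of Hmgcs1 and Srebf2, 2 of the 26, and in 1.34% of all. The dioxin response letters TNGCGTG occurred in the windows of Acat2 and Insig1, 2 of the 26, and in 4.10% of all. The CCAAT box occurred in 19 of the 26 windows, Mylip among them, and in 33.8% of all. These are letter matches and not measured binding sites. The Abca1 stretch is chr4:53159905-53160004 (minus strand), that of Hmgcs1 is chr13:119690168-119690267 (plus strand) and that of Srebf2 is chr15:82147061-82147160 (plus strand). Each is written 5′ to 3′ on the strand of the gene, with the match in capitals. The Abca1 match is read as its reverse complement, and it begins 67 bases before the start. The matches of Hmgcs1 and Srebf2 begin 137 and 162 bases before it.
Abca1: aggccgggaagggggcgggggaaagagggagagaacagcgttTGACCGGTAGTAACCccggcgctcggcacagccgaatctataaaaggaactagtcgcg
Hmgcs1: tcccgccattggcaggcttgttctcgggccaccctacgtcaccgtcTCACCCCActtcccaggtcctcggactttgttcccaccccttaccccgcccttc
Srebf2: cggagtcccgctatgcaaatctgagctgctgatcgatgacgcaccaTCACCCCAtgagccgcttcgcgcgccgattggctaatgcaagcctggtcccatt

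After filtering, 1858 Control cells and 1138 PCB126 cells remained, with median depths of 5258.5 and 6567 UMIs (unique molecules) and 0 barcodes in common. The 28 genes together held 12927 Control UMIs (0.0940% of all in cells) and 11858 PCB126 UMIs (0.120%). Levels are given as CPM, the UMIs of a gene scaled to all UMIs of the class in a library (counts-per-million), and ratios as PCB126 over Control with exact 95% intervals. With 1 library per group no test was possible, and the intervals cover counting error only, not the variation between mice or dissociations. A gene with at least 20 UMIs in a class was counted as past the fold when it differed more than 1.5-fold between the libraries with 0.5 counts added to each sum. Liver sinusoidal endothelial cell (LSEC)-like cells numbered 146 in the Control and 458 in the PCB126 library, and vascular endothelial-like cells 125 and 133. All 15 LSEC markers and all 15 vascular endothelial markers were detected in their class in both libraries. Cholangiocyte-like cells numbered 71 and 86, and neutrophil-like cells 758 and 99. Cyp1a1, a canonical target of the aryl hydrocarbon receptor, was at 19.1 and 4834 CPM in LSEC-like cells and at 293 and 5441 CPM in vascular endothelial-like cells, high in the PCB126 library in both.

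The efflux genes were lower in the vascular endothelial-like cells of the PCB126 library, all 3 of them past the fold. Mylip was at 726 CPM in the Control library (955 UMIs) and at 339 CPM in the PCB126 library (415 UMIs). It was thus 2.14-fold lower (1.91 to 2.41). Abca1, which loads cholesterol onto lipid-poor apolipoprotein A-I, was at 372 CPM (490 UMIs) and 238 CPM (291 UMIs), 1.57-fold lower (1.35 to 1.82). Abcg1, which passes sterol to HDL, was at 78.3 CPM (103 UMIs) and 47.4 CPM (58 UMIs), 1.65-fold lower (1.19 to 2.32). No interval of these 3 genes reached 1, and none of the Poisson intervals of their levels overlapped between the libraries. No share of all genes stands beside these interval counts, which therefore cannot be set against all genes. The summed level of the 3 genes was 1176 CPM in the Control and 624 CPM in the PCB126 library, 1.89-fold lower (1.73 to 2.06). Mylip held 955 of the 1548 Control UMIs and 415 of the 764 PCB126 UMIs of that sum. Of the 8735 genes that reached 20 UMIs in this class, 14.3% were past the fold downward and 7.44% upward, and the median log2 ratio was -0.10. Among the 15 members that reached 20 UMIs, 5 were past the fold downward and 3 upward.

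**Figure D1:**
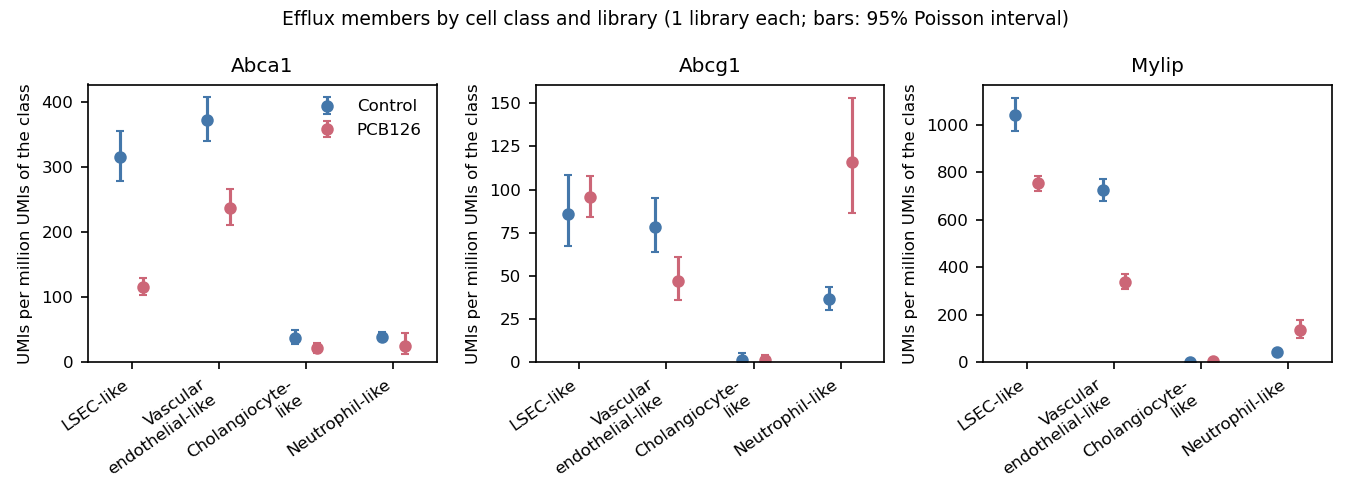
Levels of Abca1, Abcg1 and Mylip (vertical axes, CPM within the class) in 4 cell classes, with Control in blue and PCB126 in red, 1 library each, and bars as 95% Poisson intervals. All 3 genes were lower in the PCB126 library in vascular endothelial-like cells, while Abcg1 and Mylip were higher there in neutrophil-like cells.

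The vascular class consisted of 2 clusters that both libraries filled about evenly. Cluster 4, led by Bmp4, Rspo3, Wnt9b, Selp and Vwf, held 83 cells of the Control and 91 of the PCB126 library. Cluster 12 was led by Gja5, Nrg1 and Vegfc and held 42 of each. In cluster 4, Mylip was at 906 and 419 CPM, 2.16-fold lower (1.91 to 2.45), and in cluster 12 at 267 and 135 CPM, 1.97-fold lower (1.38 to 2.86). Abca1 was at 441 and 295 CPM in cluster 4, 1.49-fold lower (1.28 to 1.75), and at 197 and 92.1 CPM in cluster 12, 2.14-fold lower (1.39 to 3.35). The lower level of both genes was therefore present within each cluster. Abcg1 was lower in cluster 4, at 98.4 and 55.9 CPM, and nearly level in cluster 12, at 27.0 and 25.9 CPM on 10 and 9 UMIs. Both clusters had more efflux UMIs in the Control library, with sums of 1445 and 771 CPM in cluster 4 and of 491 and 253 CPM in cluster 12. The sum in cluster 12 was below that of cluster 4 in each library.

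The share of cells with an efflux UMI gave the same order in the vascular cells. When each cell was thinned to 1000 UMIs, with no cell of this class below that depth, 83 of 125 Control cells (66.4%) and 49 of 133 PCB126 cells (36.8%) had at least 1 UMI of the 3 genes. Unthinned, the shares were 96.8% and 93.2%, at median depths of 9620 and 8960 UMIs. The lowest thinned shares among the classes in which both libraries had 50 or more cells were those of cholangiocyte-like cells, 4.29% and 2.33% (39.4% and 31.4% unthinned, at 10729 and 15527.5 UMIs), with 1 Control cell left out as too shallow. Markers of some other cell types were also lower in the PCB126 cells of the vascular class. The 15 hepatocyte markers summed to 268 CPM in the Control and 125 CPM in the PCB126 library, with Cps1 and Tat at 0 in both, and the 10 erythroid markers to 2576 and 64.5 CPM. The 15 stellate or fibroblast markers summed to 654 and 142 CPM, with Lrat at 0 in both and 10 of the 14 detected markers lower in the PCB126 library, and the 14 neutrophil markers to 287 and 108 CPM. Other lists were higher there, among them those of plasmacytoid dendritic cells (927 and 1012 CPM), myeloid progenitors (356 and 392 CPM), B cells (8.36 and 17.1 CPM) and cholangiocytes (7.60 and 19.6 CPM). The part of stellate, erythroid and neutrophil transcripts in the efflux values was not tested. After the profile of low-UMI barcodes was subtracted, the log2 ratio of the efflux sum was -0.89, against -0.91 before. The median mitochondrial share of these cells was 7.21% in the Control and 10.9% in the PCB126 library, and over the alternatives that gave a value, one of them with totals free of mitochondrial genes, the log2 ratio of the efflux sum ran from -1.10 to -0.84.

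Among the 14 members with at least 20 UMIs in LSEC-like cells, Abca1 stood furthest from 1, whereas Mylip was moderately lower and Abcg1 was not. Abca1 was at 315 CPM in the Control (263 UMIs) and 116 CPM in the PCB126 library (319 UMIs), 2.70-fold lower (2.29 to 3.19). Mylip was at 1042 CPM (871 UMIs) and 753 CPM (2064 UMIs), a ratio of 0.722 (0.667 to 0.783). Abcg1 was at 86.1 CPM (72 UMIs) and 95.5 CPM (262 UMIs), a ratio of 1.11 (0.852 to 1.46). Abca1 was thus high in the Control library, the Mylip intervals did not overlap, and those of Abcg1 did. The summed efflux level was 1442 and 964 CPM, a ratio of 0.669 (0.624 to 0.716). Mylip held 871 of the 1206 Control UMIs and 2064 of the 2645 PCB126 UMIs of that sum. Of the 14 members with at least 20 UMIs here, 1 was past the fold downward and 2 upward, beside 11.2% and 17.6% of all 8995 genes, whose median log2 ratio was 0.07.

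The LSEC-like values rest on clusters that hardly mixed the libraries. Cluster 7, led by Abcc9, Galnt15 and Clca3a1, held 129 Control cells against 13 of PCB126. Its counterparts were cluster 3 (Lyve1, Col13a1 and Stab2), with 10 and 307, and cluster 6 (Id4, Kit and Wnt2), with 7 and 138. Within the clusters, Mylip differed little: its levels were 1075 and 962 CPM in cluster 7, 828 and 805 CPM in cluster 3, and 729 and 649 CPM in cluster 6. The ratios were 0.896 (0.708 to 1.12), 0.972 (0.717 to 1.35) and 0.890 (0.621 to 1.32), so each interval held 1. Abca1 was at 332 and 113 CPM in cluster 7, on 246 and 10 UMIs, 2.93-fold lower (1.57 to 6.18). It was at 135 and 104 CPM in cluster 3, a ratio of 0.774 (0.368 to 1.95), and at 235 and 136 CPM in cluster 6, a ratio of 0.579 (0.305 to 1.23). Cluster makeup and exposure cannot be told apart in this class. Mitochondrial UMIs took a median of 11.5% in Control and 14.6% in PCB126 cells, and Gm42418 took 21.0% and 14.6% of their UMIs. With at most 10% mitochondrial UMIs, 13 Control and 58 PCB126 LSEC-like cells were left and the log2 ratio of Abca1 was 0.32 instead of -1.44. The hepatocyte marker sum was 438 and 155 CPM in this class, with Cps1 at 0 in the Control and Cyp2e1 at 0 in the PCB126 library, and the erythroid sum was 5577 and 728 CPM. After the low-UMI profile was subtracted, the log2 ratio of Abca1 was -1.41.

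**Figure D2:**
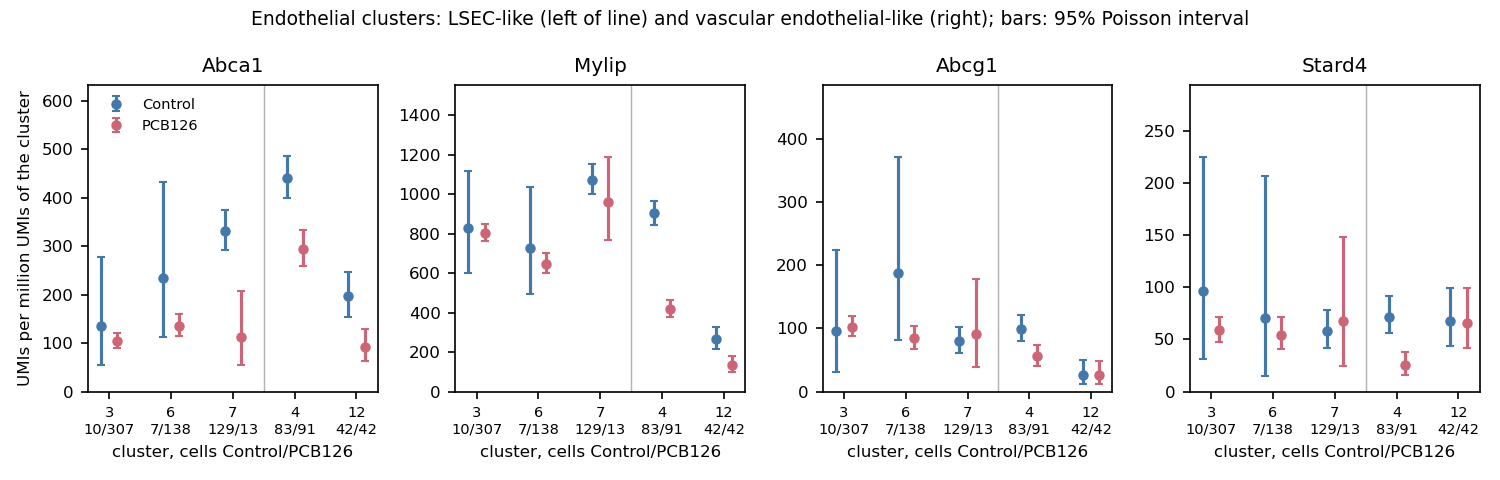
Levels of Abca1, Mylip, Abcg1 and Stard4 (CPM within the cluster) in the 3 LSEC-like and 2 vascular endothelial-like clusters, with the cell numbers of each library under the cluster number and bars as 95% Poisson intervals. In vascular clusters 4 and 12, Abca1 and Mylip were lower in the PCB126 library, while Mylip was near-level within LSEC-like clusters 3, 6 and 7.

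Among the sterol-sensing genes, Stard4, which encodes a soluble sterol carrier between membranes, was lower in the PCB126 vascular cells. It was at 70.7 CPM in the Control (93 UMIs) and 36.7 CPM in the PCB126 library (45 UMIs), 1.92-fold lower (1.33 to 2.81). The difference was in cluster 4, at 71.9 and 25.1 CPM, 2.87-fold lower (1.75 to 4.87), and not in cluster 12, at 67.5 and 66.2 CPM, a ratio of 0.981 (0.532 to 1.80). The difference between the clusters was not tested. In LSEC-like cells Stard4 was at 61.0 CPM (51 UMIs) and 57.6 CPM (158 UMIs), a ratio of 0.945 (0.685 to 1.32), so the libraries overlapped there. Insig1, whose protein holds SCAP back when sterol is plentiful, was higher in the PCB126 library in both endothelial classes on few UMIs. Its ratio was 1.88 (1.01 to 3.80) in LSEC-like cells, from 12 to 74 UMIs, and 1.74 (0.981 to 3.15) in vascular cells, from 21 to 34 UMIs. With at most 10% mitochondrial UMIs the direction turned in LSEC-like cells, to a log2 ratio of -0.71 instead of 0.86. Srebf2, which encodes SREBP2 itself, had ratios of 1.45 (0.666 to 3.59) and 1.65 (0.782 to 3.62). Scap had ratios of 1.45 (0.666 to 3.59) and 0.735 (0.334 to 1.57). The Srebf2 and Scap intervals all held 1.

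The transport genes were level or slightly higher in the PCB126 endothelium. Npc2, the soluble partner that hands lysosomal cholesterol to the membrane protein encoded by Npc1, was at 116 CPM (97 UMIs) and 151 CPM (415 UMIs) in LSEC-like cells, a ratio of 1.30 (1.04 to 1.64). In vascular cells it was at 158 CPM (208 UMIs) and 173 CPM (212 UMIs), a ratio of 1.10 (0.900 to 1.33). Npc1 had ratios of 1.54 (0.880 to 2.89) in LSEC-like and 1.28 (0.776 to 2.11) in vascular cells. Soat1, which encodes the enzyme that esterifies cholesterol for storage, was at 37.1 CPM (31 UMIs) and 48.9 CPM (134 UMIs) in LSEC-like cells, a ratio of 1.32 (0.886 to 2.02). In vascular cells its ratio was 1.05 (0.661 to 1.66). Apart from Npc2 in LSEC-like cells, each of these intervals held 1.

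The synthesis genes were sparse in endothelium, and over each whole class their sum differed little between the libraries. It was 115 CPM in the Control (96 UMIs) and 114 CPM in the PCB126 library (314 UMIs) in LSEC-like cells, a ratio of 0.997 (0.791 to 1.27). In vascular cells it was 134 CPM (176 UMIs) and 113 CPM (138 UMIs), a ratio of 0.842 (0.669 to 1.06). Both intervals held 1, while those of the efflux sums in the same cells lay below it. That contrast was present within vascular cluster 4, with a synthesis ratio of 0.817 (0.618 to 1.08). In cluster 12 the synthesis ratio was 0.903 (0.590 to 1.38), and its interval overlapped that of the efflux sum, 0.516 (0.395 to 0.669). The contrast was not present within LSEC-like cluster 3, where the synthesis ratio was 0.483 (0.270 to 0.952), from 12 to 184 UMIs, and the efflux ratio 0.955 (0.730 to 1.27). In cluster 7 the synthesis ratio was 0.420 (0.112 to 1.12), from 80 to 4 UMIs, beside an efflux ratio of 0.785 (0.635 to 0.961). In cluster 6 the synthesis ratio was 1.33 (0.507 to 4.96) and the efflux ratio 0.754 (0.565 to 1.03). The synthesis sums rest on fewer UMIs, and the difference between the sums was not tested. Only 4 of the 18 synthesis genes reached 20 UMIs in LSEC-like cells, namely Hmgcs1, Msmo1, Sc5d and Ebp, and Pmvk joined them in vascular cells. Sqle, the squalene epoxidase gene, had 0 UMIs in both endothelial classes of both libraries, under the floor of 3 counts that a count of 0 allows (3.59 and 1.09 CPM in LSEC-like, 2.28 and 2.45 CPM in vascular cells). None of the 4 was past the fold in LSEC-like cells, with log2 ratios from -0.32 to 0.53. In vascular cells Msmo1, a sterol demethylation gene, had a ratio of 1.61 (0.677 to 4.01) on 25 UMIs, and Sc5d, a late desaturase gene, one of 0.622 (0.267 to 1.38) on 30 UMIs. Ebp, the sterol isomerase gene, was at 30.4 and 35.1 CPM there. Among genes below 20 UMIs in vascular cells, Cyp51 had 10 Control UMIs and 1 PCB126 UMI, and Nsdhl had 8 and 0. In LSEC-like cells Fdps, also below 20 UMIs, was seen in the PCB126 library only. It had 0 Control and 9 PCB126 UMIs in cluster 3 (ratio from 0.0622 upward) and 0 and 10 in cluster 6 (from 0.0947 upward). Those clusters held 10 and 7 Control cells, and both intervals held 1. Cluster 7, with most of the Control cells of the class, had no Fdps UMIs.

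**Figure D3:**
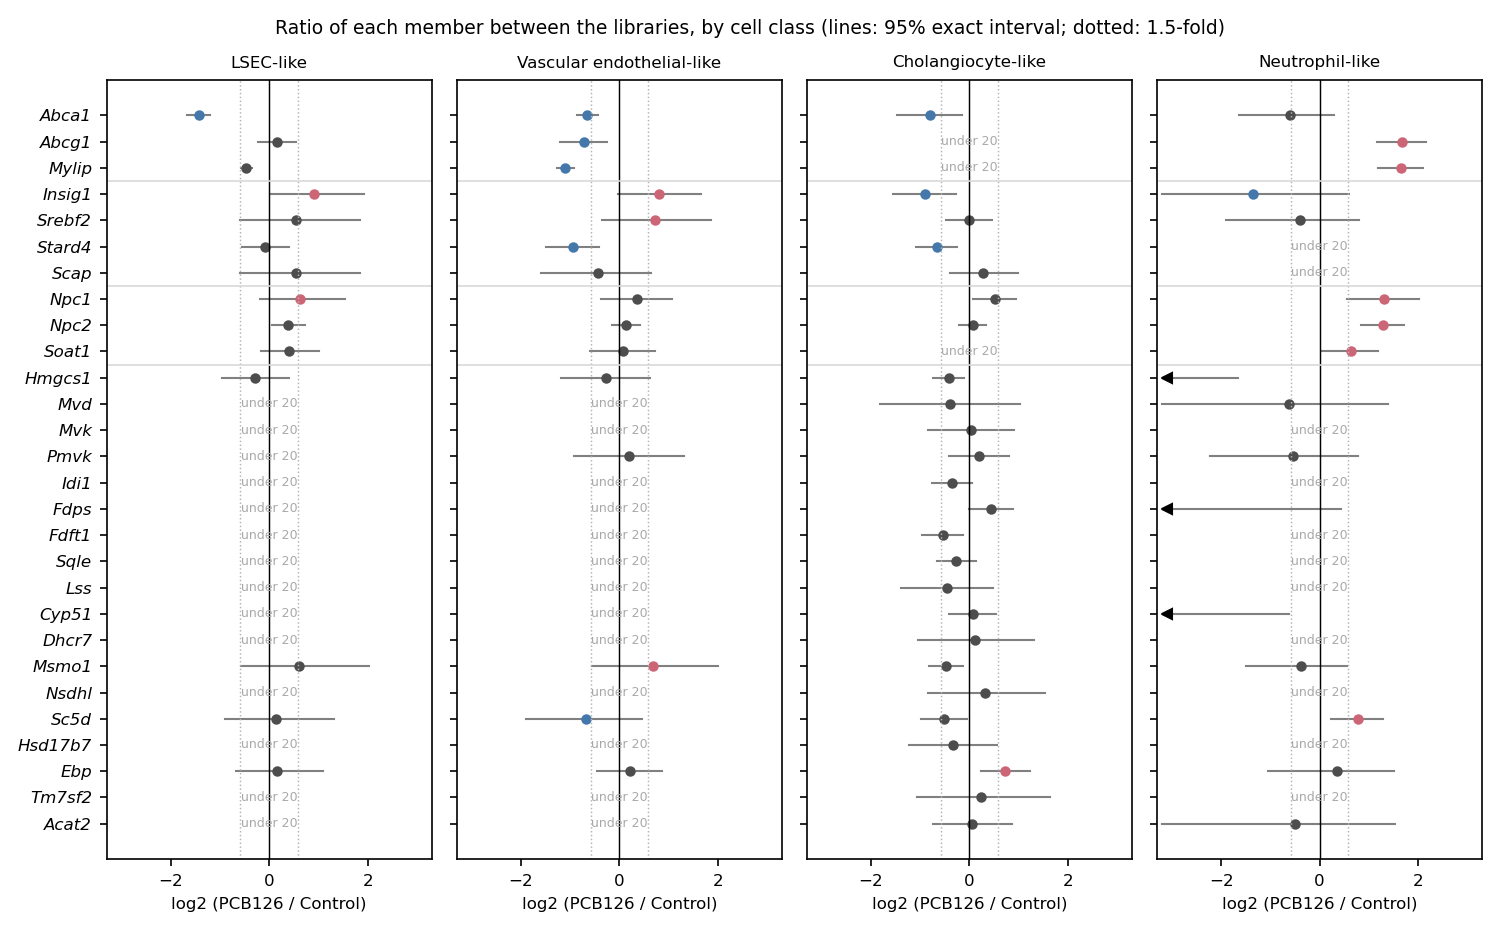
Log2 ratio of each member, PCB126 over Control, in 4 cell classes, ordered by role, with 95% exact intervals as lines, 1.5-fold as dotted lines, red for past the fold upward, blue for downward, and black arrows for genes at 0 UMIs in the PCB126 library. Members under 20 UMIs in a class are written as such, among them 14 of the 18 synthesis genes in LSEC-like cells.

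Cholangiocyte-like cells had the highest summed synthesis level of the classes and the most complete view of the pathway. The 18 genes summed to 839 CPM in the Control (1074 UMIs) and 744 CPM in the PCB126 library (1251 UMIs), a ratio of 0.886 (0.816 to 0.963). All 18 reached 20 UMIs and 17 of them lay within 1.5-fold. Hmgcs1, which makes HMG-CoA at the head of the pathway, was at 133 CPM (170 UMIs) and 99.3 CPM (167 UMIs), a ratio of 0.747 (0.600 to 0.931). Fdft1, the squalene synthase gene, was at 81.2 CPM (104 UMIs) and 55.9 CPM (94 UMIs), a ratio of 0.688 (0.515 to 0.918). Msmo1 was at 112 CPM (144 UMIs) and 80.8 CPM (136 UMIs), a ratio of 0.719 (0.564 to 0.915). Sc5d was at 66.4 CPM (85 UMIs) and 46.4 CPM (78 UMIs), a ratio of 0.698 (0.507 to 0.961). These 4 genes were low in the PCB126 library with intervals that stopped short of 1, although none was past the fold. The count of such intervals has no share of all genes beside it and cannot be set against all genes.

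Other steps of the pathway did not follow Hmgcs1, Fdft1, Msmo1 and Sc5d in these cholangiocyte-like cells. Ebp was at 39.8 CPM (51 UMIs) and 66.0 CPM (111 UMIs), a ratio of 1.66 (1.18 to 2.35), and was the only synthesis gene past the fold. Fdps, which makes farnesyl diphosphate, was at 54.7 CPM (70 UMIs) and 73.7 CPM (124 UMIs), a ratio of 1.35 (0.998 to 1.83). Sqle was at 82.8 CPM (106 UMIs) and 69.0 CPM (116 UMIs), a ratio of 0.833 (0.634 to 1.09). Idi1, the isopentenyl diphosphate isomerase gene, was at 81.2 CPM (104 UMIs) and 63.6 CPM (107 UMIs), a ratio of 0.783 (0.592 to 1.04). Cyp51, the lanosterol demethylase gene, was at 52.3 CPM (67 UMIs) and 54.7 CPM (92 UMIs), a ratio of 1.04 (0.754 to 1.45). Pmvk, a mevalonate pathway kinase gene, was at 31.2 CPM (40 UMIs) and 35.7 CPM (60 UMIs). The intervals of Fdps, Sqle, Idi1, Cyp51 and Pmvk all held 1. Of the other 8 genes, each under 100 UMIs, Mvd, Lss and Hsd17b7 were lower and Mvk, Dhcr7, Nsdhl, Tm7sf2 and Acat2 higher in the PCB126 library. Their ratios ran from 0.726 to 1.25 and all of their intervals held 1. In all, 9 of the 18 log2 ratios were above 0 and 9 below, with a median of -0.13, beside 0.08 for all 9875 genes with at least 20 UMIs.

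The sterol-sensing genes of cholangiocyte-like cells included members that were lower in the PCB126 library. Insig1 was at 41.4 CPM (53 UMIs) and 22.0 CPM (37 UMIs), 1.88-fold lower (1.21 to 2.95). Stard4 was at 85.9 CPM (110 UMIs) and 54.1 CPM (91 UMIs), 1.59-fold lower (1.19 to 2.12). Both genes are targets of SREBP2 themselves, as are the synthesis genes. Srebf2 was level, at 54.7 CPM (70 UMIs) and 54.1 CPM (91 UMIs), and Scap had a ratio of 1.22 (0.756 to 1.99). Abca1 was at 37.5 CPM (48 UMIs) and 21.4 CPM (36 UMIs), 1.75-fold lower (1.11 to 2.78). Npc1 was at 54.7 CPM (70 UMIs) and 77.9 CPM (131 UMIs), a ratio of 1.42 (1.06 to 1.93), and Npc2 was level, at 148 CPM (189 UMIs) and 155 CPM (260 UMIs). Abcg1, Mylip and Soat1 had 4, 7 and 8 UMIs over both libraries. Of the 25 members with at least 20 UMIs, 3 were past the fold downward and 1 upward, beside 6.7% and 9.59% of all genes. Hepatocyte markers summed to 7731 CPM in the Control and 6187 CPM in the PCB126 cells of this class, with Cyp3a11 and Cps1 at 0 in both, and cholangiocyte markers to 18814 and 17262 CPM. The part of hepatocyte transcripts in these values was not tested.

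In neutrophil-like cells, Abcg1 and Mylip were higher in the PCB126 library, as were the transport genes. Abcg1 was at 36.5 CPM in the Control (117 UMIs) and 116 CPM in the PCB126 library (50 UMIs), a ratio of 3.18 (2.24 to 4.47). Mylip was at 43.7 CPM (140 UMIs) and 137 CPM (59 UMIs), a ratio of 3.14 (2.27 to 4.28). Abca1 was at 38.7 CPM (124 UMIs) and 25.6 CPM (11 UMIs), a ratio of 0.660 (0.321 to 1.22). Abcg1 and Mylip were thus high in the PCB126 library and Abca1 overlapped. Npc2 was at 56.2 CPM (180 UMIs) and 137 CPM (59 UMIs), a ratio of 2.44 (1.79 to 3.29). Soat1 was at 47.8 CPM (153 UMIs) and 74.4 CPM (32 UMIs), a ratio of 1.56 (1.03 to 2.29). Npc1 had 69 and 23 UMIs and a ratio of 2.48 (1.48 to 4.03), but 7 of the 23 came from 1 of the 8 PCB126 cells that held any. Of the 17 members with at least 20 UMIs, 6 were past the fold upward and 4 downward. Over all 6302 genes of the class these shares were 25.1% and 14.9%, with a median log2 ratio of 0.17, so many genes of neutrophil-like cells differed between the libraries.

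In these neutrophil-like cells the synthesis sum was 195 CPM (623 UMIs) and 156 CPM (67 UMIs), a ratio of 0.800 (0.613 to 1.03). Sc5d, with the most UMIs of the list, was at 53.1 CPM (170 UMIs) and 90.6 CPM (39 UMIs), a ratio of 1.71 (1.17 to 2.43). Hmgcs1 was at 27.8 CPM in the Control (89 UMIs) and at 0 UMIs in the PCB126 library, whose floor of 3 counts is 6.97 CPM. Its Control level was 3.99 times that floor, with the counting error of the Control level left out. Cyp51 was at 13.7 CPM (44 UMIs) and 0 UMIs, with a Control level 1.97 times the floor on the same terms. Fdps had 22 and 0 UMIs, and its Control level of 6.87 CPM was under that floor. Msmo1 was at 30.3 CPM (97 UMIs) and 23.2 CPM (10 UMIs), a ratio of 0.767 (0.357 to 1.47). Insig1, with 38 and 2 UMIs, had a ratio of 0.392 (0.0458 to 1.52). Mvd, Pmvk, Ebp, Acat2 and Srebf2 had ratios from 0.647 to 1.27 with intervals that held 1. The other 11 members had under 20 UMIs here, 10 of them with 0 to 2 UMIs in the PCB126 library and Mvk with 0 in both.

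The neutrophil-like libraries sat in different clusters. Cluster 1, led by Retnlg, Mmp8 and Cxcr2, held 371 Control and 9 PCB126 cells. Cluster 15, led by AC160051.2, Gm16556 and H2-Q10, held 9 and 62, and 1 of its leading genes, Cxcr2, was a listed neutrophil marker. Cluster 19, led by Camp, Ltf and Ngp, held 28 and 3. Cluster 2, led by Tnf, Ccrl2, Csf1 and Ptgs2, held 350 and 25. There Mylip was at 49.9 CPM (60 UMIs) and 231 CPM (22 UMIs), a ratio of 4.63 (2.71 to 7.66), and Abcg1 at 53.2 CPM (64 UMIs) and 231 CPM (22 UMIs), a ratio of 4.34 (2.55 to 7.14). In cluster 15, which held most of the PCB126 cells, Mylip was at 209 CPM (7 UMIs) and 149 CPM (37 UMIs), a ratio of 0.716 (0.315 to 1.90), and Abcg1 had a ratio of 0.779 on 4 and 23 UMIs, with an interval that held 1. In cluster 1 Mylip had 61 and 0 UMIs and Abcg1 43 and 4. The efflux sum was thus higher in the PCB126 library within cluster 2, with a ratio of 2.93 (2.07 to 4.07), and not within cluster 15, with 0.862 (0.454 to 1.81), or cluster 1, with 0.826 (0.222 to 2.16). Hmgcs1 had 40 and 0 UMIs in cluster 1 (ratio up to 3.15) and 21 and 0 in cluster 2 (up to 2.43), so each interval held 1. Its other Control UMIs lay in cluster 19, and it had none in cluster 15. Cyp51 had 18 and 0 UMIs in cluster 1 and 8 and 0 in cluster 2, with intervals that also held 1. Cluster makeup and exposure cannot be told apart in this class either. The median mitochondrial share was 8.00% and 13.6%, and with at most 10% mitochondrial UMIs the log2 ratio of the efflux sum was 0.50 and that of Abcg1 0.55, which is no longer past the fold, while Mylip had 1.16. The efflux sum of the class, 119 and 279 CPM, stood beside 114 and 188 CPM in the 25% of barcodes with the lowest UMI counts. LSEC markers summed to 116 and 256 CPM in the neutrophil-like cells, with Stab2 at 0 in the Control and Clec1b at 0 in the PCB126 library. After the low-UMI profile was subtracted, the log2 ratio of the efflux sum was 1.28, against 1.23 before.

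Across the 11 classes the highest synthesis sum and the highest efflux sum belonged to different cells. The efflux sum was highest in both endothelial classes, from 624 to 1442 CPM. Most of its UMIs in those classes were of Mylip, which encodes the ubiquitin ligase for lipoprotein receptors and not a pump. Among classes with at least 50 Control cells the efflux sum was lowest in plasma-like cells, with 23 UMIs on 57 cells, and next in cholangiocyte-like cells, at 39.8 CPM. The synthesis sum was 364 CPM in those plasma-like cells. Conventional dendritic-like cells, 46 and 128 in number, had synthesis sums of 336 and 300 CPM and efflux sums of 53.5 and 73.8 CPM. Monocyte-like cells, 417 in the Control and 1 in the PCB126 library, had 225 CPM of synthesis and 126 CPM of efflux transcripts in the Control. Macrophage-like cells numbered 6 and 43, and their PCB126 level was 266 CPM of synthesis and 237 CPM of efflux. In the PCB126 macrophage-like cells Npc2 was at 1387 CPM (579 UMIs) and Soat1 at 218 CPM (91 UMIs). Npc2 was at 609 CPM (410 UMIs) and 639 CPM (1202 UMIs) in dendritic-like cells, above the 116 to 173 CPM of both endothelial classes. B-like cells, 20 and 55, had synthesis sums of 174 and 202 CPM, and T-like cells, 18 and 70, had 144 and 242 CPM. Erythroid-like cells, 84 and 2, had 108 CPM in the Control.

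**Figure D4:**
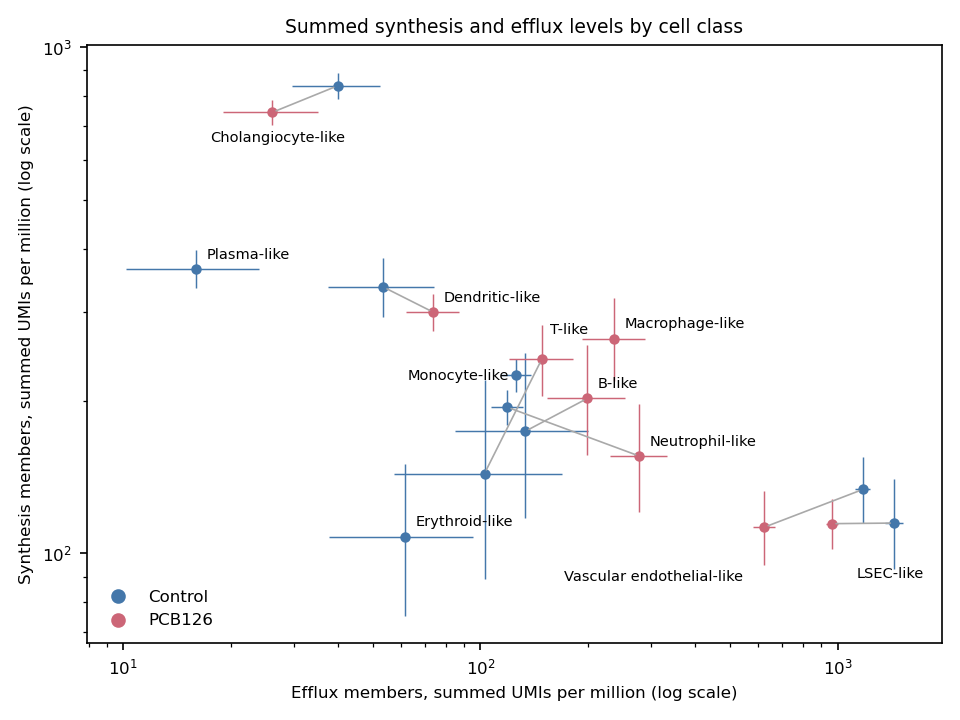
Summed level of the 18 synthesis genes (vertical) against that of the 3 efflux genes (horizontal), both in CPM on log scales, by cell class and library, with 95% Poisson intervals, grey lines joining the libraries of a class, and libraries with at least 15 cells of the class shown. Endothelial classes lie at 624 to 1442 on the efflux axis, and cholangiocyte-like cells lie highest on the synthesis axis, at 839 and 744.

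Wider lists of the same pathways, which hold none of the members, gave these counts in the endothelial classes. Of 26 further SREBP-related genes, 16 reached 20 UMIs in LSEC-like cells, with 2 past the fold upward, 1 downward and a median log2 ratio of 0.03. In vascular cells these were 1 and 1 of 16, with a median of -0.10. Of 19 further LXR-related genes, 3 of 10 were past the fold upward and 2 downward in LSEC-like cells (median 0.34), and 2 and 3 of 14 in vascular cells (median 0.11). The medians of all genes tested were 0.07 and -0.10 in these classes. Of 26 genes of uptake, lysosomal release and oxysterol metabolism, 3 and 3 of 16 were past the fold in LSEC-like cells and 1 and 2 of 16 in vascular cells, with medians of 0.21 and -0.12. In LSEC-like cells Cd36, a scavenger receptor for oxidized lipoproteins and fatty acids, was at 1244 CPM (1040 UMIs) and 399 CPM (1093 UMIs), 3.12-fold lower (2.86 to 3.40). Cd36 was also among the 10 leading genes of cluster 7, which held most of the Control cells of the class. Gramd1a, which encodes a carrier of cholesterol from the plasma membrane to the endoplasmic reticulum, was at 61.0 CPM (51 UMIs) and 28.8 CPM (79 UMIs), 2.12-fold lower (1.46 to 3.05). No gene of these lists with at least 100 UMIs was past 2-fold in vascular cells. Outside endothelium, Apoc1 of the LXR-related list was 2.14-fold lower (2.02 to 2.26) in cholangiocyte-like cells, at 2607 and 1219 CPM. In neutrophil-like cells, Apoe of that list was at 310 and 119 CPM, 2.62-fold lower (1.98 to 3.54). The 15 hepatocyte markers summed to 629 and 174 CPM in the same cells, with 12 of the 14 detected markers lower in the PCB126 library. The part of hepatocyte transcripts in the Apoc1 and Apoe values was not tested. Mid1ip1, also LXR-related, was higher in neutrophil-like cells, at 35.3 and 88.3 CPM. Lipa, of the uptake list, was higher too, at 31.8 and 109 CPM, a ratio of 3.43 (2.37 to 4.89).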

How the data were processed

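Single-cell libraries were made from the liver of 1 Control and 1 PCB126 mouse with a droplet 3′ kit, per the labels' protocols. Raw UMI counts, not normalized by the authors, are what the deposited matrices give for each gene in each barcode. They come with deposited lists of genes and barcodes, which hold other content, namely identifiers. Cell Ranger 6.0.0 wrote the matrices, per the file headers. Seurat 4.0.1 and Cell Ranger 6.1.1 are the tools in the submitters' processing notes. Neither the build nor the annotation is given in the sources used here.

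Barcodes with at least 500 UMIs, at least 250 genes and at most 20% mitochondrial UMIs were kept (1886 of 8550 and 1149 of 4307), and the highest Scrublet scores, at 0.8% per 1000 barcodes, were removed as doublets (28 and 11). A further 412 and 1698 barcodes failed on mitochondrial share alone. Cells were clustered with scanpy 1.11.5 (2000 variable genes, 30 components, 15 neighbours, Leiden resolution 1), leaving out the members, the wider lists and response genes. Clusters were named "X-like" after whichever of 19 types had the highest share of its markers detected (log2 difference of at least 1, in at least 10% of cells, at least 3 markers), and a cluster stayed unnamed where its 10 leading genes, among genes in at least 50% of its cells, held more markers of another type, or where its cells had a median depth under 1/3 of their library's and none of its own markers led. The scoring dates from after a first look at the data. Unnamed cells were 110 and 57. The rebuilt classes may differ from those of the study.

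UMIs were summed per class and library and scaled to CPM. Classes were compared where both libraries held at least 100 cells, those with at least 50 were given as values, and others by level only. Log2 ratios used for counts past the fold had 0.5 counts added. Ratios had exact conditional binomial intervals, levels Poisson intervals, and the ratio step was tested on simulated data. In a class, members with at least 100 UMIs were named with levels, those with 20 to 99 by ratio or range, and genes of other lists with at least 100 UMIs and a ratio past 2. The members and lists were chosen with earlier results of these data known. Some of these choices were varied, as the closing section gives. The UMI and gene cutoffs, the numbers of variable genes, components and neighbours, and the marker lists were not varied.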

Additional observations from a re-analysis of the deposited data

Results flagged for a closer look

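For 3 members, 2 classes were past the fold in opposite directions with counting intervals that left out 1. No share of all genes stands beside this count, which therefore cannot be set against all genes. Insig1 had a log2 ratio of 0.86 in LSEC-like cells and -0.91 in cholangiocyte-like cells, but the LSEC-like value turned to -0.71 with at most 10% mitochondrial UMIs. Abcg1 had 1.68 in neutrophil-like cells and -0.72 in vascular endothelial-like cells, and Mylip had 1.66 and -1.10 in the same classes. Abcg1 and Mylip in neutrophil-like cells were higher in the PCB126 library within cluster 2 but not within cluster 15. Sc5d was past the fold upward in neutrophil-like cells (0.79) and downward in vascular endothelial-like cells (-0.66), where its interval held 1. The differences between classes were not tested, since each rests on 1 library per group.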

How the results depend on the processing

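Values here are log2 ratios of PCB126 over Control. Of 71 class values of members with at least 20 UMIs, 25 were past 1.5-fold, of which 20 kept their direction and 11 also stayed past 1.5-fold under every alternative that gave a value. In vascular endothelial-like cells all 8 kept their direction, and Mylip (-1.41 to -1.02), Abcg1 (-0.88 to -0.62) and Stard4 (-1.67 to -0.61) stayed past the fold. The efflux sum there, -0.91, was -1.07 with each cell gated by its own markers and -1.10 thinned to 1000 UMIs. In LSEC-like cells it was -0.58, and it became -0.0564 with at most 10% and -0.78 with at most 50% mitochondrial UMIs, -0.41 at Leiden resolution 0.5, -0.76 at resolution 2, -0.68 centred on the median gene and -0.46 thinned. The LSEC-like synthesis sum, -0.01, became -0.39 at resolution 0.5 and -0.50 thinned. At most 10% mitochondrial UMIs reversed Insig1 (-0.71) and Abca1 (0.32) in LSEC-like cells. In neutrophil-like cells, Insig1 reversed when thinned (1.06) and with matched clusters (0.0739), Npc1 with at most 50% mitochondrial UMIs (-0.70) and Soat1 when thinned (-0.26). The causes were not tested.

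With a fold of 2 the counts of members higher and lower were 0 and 1 in LSEC-like, 0 and 1 in vascular, 0 and 0 in cholangiocyte-like and 4 and 4 in neutrophil-like cells. In the same order of classes, the counts among members with at least 50 UMIs were 2 and 1, 1 and 4, 1 and 3, and 6 and 1, and with members from 1 UMI on they were 5 and 7, 4 and 12, 2 and 4, and 7 and 6. The shares over all genes given above are for 1.5-fold and at least 20 UMIs. None stands beside the counts at these other settings, which therefore cannot be set against all genes. Ranking leading genes among those in at least 10% of cells was an alternative chosen after seeing the data. It left 749 Control and 37 PCB126 neutrophil-like cells, and 139 and 320 LSEC-like cells. At most 10% mitochondrial UMIs left no vascular class, no LSEC-like cluster had 15 cells in each library, an alternative under 5 UMIs gave no value, and no low-UMI profile was subtracted in cholangiocyte-like cells, where hepatocyte markers were too abundant. No paired analysis was possible because each group has 1 library.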

Other observations

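Cluster 8 stayed unnamed, with 48 Control and 46 PCB126 cells at a median of 1824.5 UMIs. Its 10 leading genes by fold began with Gm42418 and held AY036118 and Lars2, the endothelial genes Fabp4 and Adgrf5, and Mylip. Mylip was at 415 CPM there in the Control (46 UMIs) and 586 CPM in the PCB126 library (62 UMIs), a ratio of 1.41 (0.949 to 2.11). The synthesis genes summed to 32 and 7 UMIs in the same cells. These values entered no class.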
